A study of Homo sapiens with 6 samples.

Results

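The report concerns 9 genes of MHC class I antigen presentation, PSMB8, PSMB9, PSMB10, TAP1, TAP2, TAPBP, HLA-B, HLA-C and B2M, in IGROV-1 cells, an established human ovarian carcinoma line. All probes that the array annotation assigns to these symbols were taken, which gave 18 of the 48803 probes on an array. The 3 CpG-ODN arrays come from cells kept for 24 h with 10 µM CpG-ODN and the 3 saline arrays from cells given saline, whose duration the labels do not state. Since separate cultures are not stated for the arrays of a group, a p-value here measures the spread between samples that may be technical replicates.

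MHC class I molecules display short peptides on the cell surface, where cytotoxic T cells read them. The peptides are cut by the proteasome, in which interferon can replace the constitutive catalytic subunits with PSMB8, PSMB9 and PSMB10 to form the immunoproteasome. TAP1 and TAP2 form the transporter that carries peptides into the endoplasmic reticulum, TAPBP (tapasin) bridges that transporter to empty class I molecules, and each molecule pairs a heavy chain, such as HLA-B or HLA-C, with the light chain B2M. Most of these genes are known interferon targets. CpG-ODN carries unmethylated CpG motifs, which Toll-like receptor 9 binds, and the oligonucleotide given here was the phosphorothioate ODN1826. Its 20 bases are shown because they are the treatment itself, with the 2 CpG motifs in capitals:
ODN1826: tccatgaCGttcctgaCGtt

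The promoters of TAP1 and PSMB9 are shown because these genes are transcribed away from each other on chromosome 6, and PSMB9 gave the lowest difference from saline of the members while TAP1 lay close to 0. In the RefSeq promoter table (GRCh38.p14) the PSMB9 start and 1 of the 2 TAP1 starts lie 488 bases apart on opposite strands. The 250 bases before each start are given 5′ to 3′ on the gene's own strand, chr6:32853705-32853954 (minus strand) for TAP1 and chr6:32853942-32854191 (plus strand) for PSMB9. Capitals mark matches to the interferon-stimulated response element (ISRE, searched as GAAANNGAAA), the gamma-activated site (GAS, TTCNNNGAA) and the NF-kB consensus, on both strands, where overlapping matches run together:
TAP1: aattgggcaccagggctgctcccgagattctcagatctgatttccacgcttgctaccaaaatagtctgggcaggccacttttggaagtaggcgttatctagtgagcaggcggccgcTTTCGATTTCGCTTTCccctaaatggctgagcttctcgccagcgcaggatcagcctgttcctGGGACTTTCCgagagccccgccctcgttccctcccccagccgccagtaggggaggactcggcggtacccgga
PSMB9: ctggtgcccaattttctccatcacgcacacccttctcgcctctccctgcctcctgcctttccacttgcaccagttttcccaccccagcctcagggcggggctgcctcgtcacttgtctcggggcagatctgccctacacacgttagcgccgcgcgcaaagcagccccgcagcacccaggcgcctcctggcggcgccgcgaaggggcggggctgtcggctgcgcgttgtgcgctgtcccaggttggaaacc
The TAP1 window holds 2 overlapping ISRE matches and 1 NF-kB match, and the 250-base PSMB9 window holds none of the 3 motifs. Together the windows cover the stretch between these TAP1 and PSMB9 starts. The TAP1 matches thus also lie before the PSMB9 start, farther away than its 250 bases. Their part in the difference between the 2 genes was not tested. A match is a run of letters and not a measured binding site. Variants of these letters were not searched, so a window without a match may still hold such an element. Of the 250-base windows of 35116 promoters in that table, 3.02% hold the ISRE, 6.57% the GAS and 9.96% the NF-kB letters. Among the 9 genes the ISRE was matched in 5 (TAP1, TAP2, TAPBP, PSMB10 and B2M), the NF-kB consensus in 5 (TAP1, TAPBP, HLA-B, HLA-C and B2M) and the GAS in 2 (PSMB8 and TAP1), counting any of a gene's listed starts. The matched ISRE letters were GAAAGCGAAA in both TAP2 and PSMB10 and GAAAGTGAAA in TAPBP. A CCAAT box (CCAAT), which 32% of promoters hold, was matched in 5 of the genes, and TGACG, a core of the cyclic AMP response element, in 6, against 21.2% of promoters. For TAP1 and PSMB9 the CCAAT match is the same site, where their windows overlap. HLA-B and HLA-C each held NF-kB, CCAAT and TGACG letters.

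The array values set the limits of what follows. Between 17142 and 18426 probes were detected on the CpG-ODN arrays (detection p under 0.05), against 17625 to 18790 on the saline arrays. Across the 17950 probes detected on at least 3 of the 6 arrays, pairs of CpG-ODN arrays correlated at 0.964 to 0.983, and pairs of saline arrays at 0.989 to 0.991. The mean non-normalized intensity was 712.7 on CpG-ODN 1 and 592.0 on CpG-ODN 2, with 605.7 to 650.2 on the other 4 arrays. Of the epithelial markers 5 of 5 (KRT8, KRT18, KRT19, EPCAM and CDH1) were detected on all 6 arrays, as were PAX8 and FOLR1 of the 5 ovarian carcinoma markers. Of the markers of immune cells, PTPRC and CD3E were detected on 0 arrays and CD14 and CD68 on all 6, and of the genes of professional antigen presentation CIITA, HLA-DRA and CD80 were detected on 0. Of the endothelial markers PECAM1 and VWF were detected on all 6 arrays and CDH5 on 0, and the normalized intensity summed over the list was 556.1 to 711.2 on CpG-ODN arrays and 772.2 to 815.2 on saline arrays. The part of this difference in the results below was not tested. Fibroblast markers summed to 397.6 to 465.8 on CpG-ODN arrays and 395.2 to 445.3 on saline arrays, with COL1A2 and LUM detected on 0, and leukocyte markers to 2187 to 2251 on CpG-ODN arrays and 2061 to 2231 on saline arrays.

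Of the 18 probes 14 were bright enough to test, at least 1 for each gene, and 0 of them passed the test. Over all tested probes 0 of 17950 passed as well (0%, limma, Benjamini-Hochberg adjusted p under 0.05), where 643 probes (3.58%) had an unadjusted p under 0.05. A single member probe, of PSMB9, was below that unadjusted value. It was also the 1 member probe of 14 on which the groups did not overlap, against 9.35% of all tested probes (5.03% with CpG-ODN lower). That probe passed the detection filter only through the saline arrays, so neither count is read as support. The 14 log2 fold changes, CpG-ODN minus saline, ran from −0.92 to 0.40 with a median of −0.12, against a median of −0.01 over all tested probes. The mean was lower in CpG-ODN for 9 of the 14, where 51.9% of all tested probes had a lower mean. The 9 include the PSMB9 probe and TAPBP ILMN_1782851, which met the filter through the saline arrays. Neither this count nor the median is therefore read as support. The 95% interval lay inside 2-fold for 13 of the 14 probes, against 93.6% of all tested probes. For every member probe but that of PSMB9 a 2-fold change of normalized intensity in either direction thus lay outside the interval. This did not hold in every fit with 1 array left out. Without CpG-ODN 3 the interval of PSMB8 ILMN_1747195 reached 1.11, and without saline 1 that of PSMB8 ILMN_1767006 reached −1.005. PSMB8 ILMN_2284794 and TAPBP ILMN_1782851 were near the detection limit, where fold changes are drawn towards 0. Their intervals do not bound the change of the transcript. In each of these results fewer cells with a transcript and less transcript per cell cannot be told apart.

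**Figure D1:**
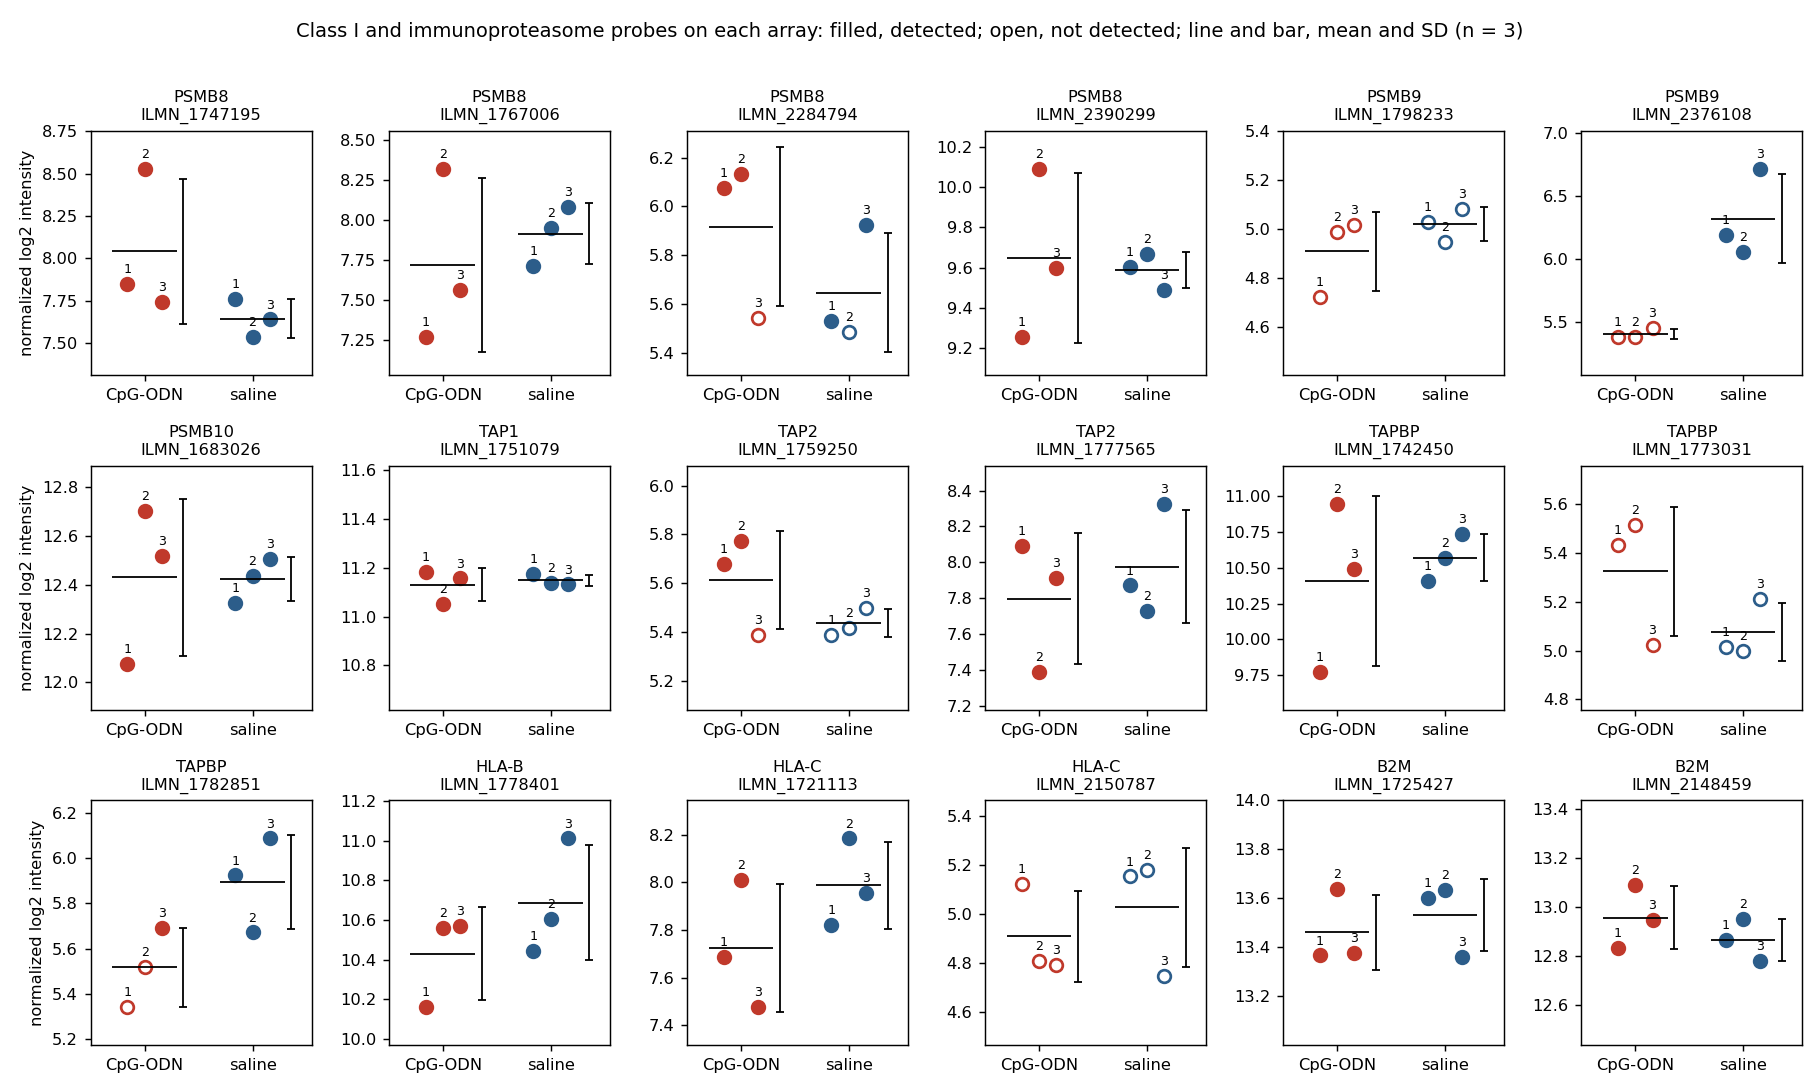
Normalized log2 intensity (vertical axes, one scale per probe) of the 18 probes on the 3 CpG-ODN arrays (red, left) and the 3 saline arrays (blue, right), numbered by array, filled where detected and open where not, with the mean as a line and the SD as a bar. The groups are separate for PSMB9 ILMN_2376108, with all CpG-ODN points open, and overlap on the other 13 tested probes.

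**Figure D2:**
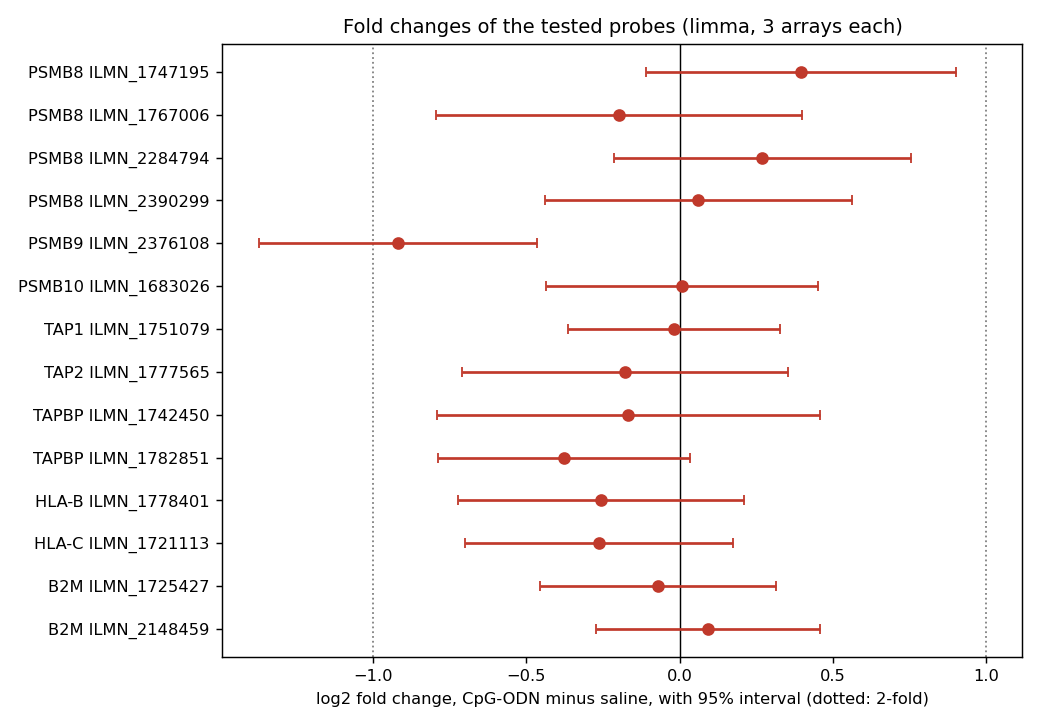
Log2 fold change, CpG-ODN minus saline (horizontal axis), of the 14 tested probes with its 95% interval from limma over 3 arrays each, and dotted lines at 2-fold. The interval of PSMB9 lies below 0 and reaches past the 2-fold line, and the other 13 hold 0 and stay inside 2-fold.

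PSMB9 (LMP2), the immunoproteasome subunit that takes the place of PSMB6, gave the lowest difference of the 9 genes. Its probe ILMN_2376108 had non-normalized intensities of 122.5, 126.2 and 132.5 on CpG-ODN arrays 1 to 3, against 167.9, 160.6 and 204.0 on saline arrays 1 to 3. The detection p was 0.074, 0.097 and 0.075 on the CpG-ODN arrays, and 0.012, 0.018 and 0.005 on the saline arrays. The probe was thus detected on 0 CpG-ODN and 3 saline arrays, a pattern that 76 of all 48803 probes share (0.156%). After background correction and quantile normalization it lay at 5.37, 5.38 and 5.45 log2 units in CpG-ODN and at 6.19, 6.05 and 6.72 in saline. Every CpG-ODN array was below every saline array, and saline 3 was the highest. No CpG-ODN array detected the probe, and against the lowest detected signal of each array it was at least 1.64-fold lower, a bound for background-corrected values only. The fitted difference was −0.92 ± 0.20 (SE, n = 3 arrays in each group), with a 95% interval from −1.37 to −0.46, an unadjusted p of 0.0013 and an adjusted p of 1.00 in limma. A probe that passes the filter through 1 group alone has to differ, so this p is given as a description. The size of the difference depended on how background was treated. It was −0.42 without background correction and −0.58 with a larger offset, with adjusted p of 1.00 in both. With 1 array left out it ran from −1.05 to −0.72. The other PSMB9 probe, ILMN_1798233, was detected on 0 of 6 arrays and gives no second reading, with intensities of 87.0 to 110.2 in CpG-ODN and 105.6 to 114.0 in saline.

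PSMB8 (LMP7), which replaces PSMB5, was read by 4 tested probes, and they did not give a common direction. The brightest, ILMN_2390299, lay at 9.25, 10.09 and 9.60 log2 units in CpG-ODN and at 9.60, 9.67 and 9.49 in saline, a difference of 0.06 ± 0.22 (SE). CpG-ODN 1 was the lowest and CpG-ODN 2 the highest of the 6 arrays on it. Probe ILMN_1767006 had the same order of the CpG-ODN arrays, with 7.27, 8.32 and 7.57 in CpG-ODN and 7.71, 7.95 and 8.09 in saline, and a difference of −0.20 ± 0.26. Probe ILMN_1747195 lay at 7.85, 8.53 and 7.74 in CpG-ODN and at 7.76, 7.53 and 7.64 in saline, a difference of 0.40 ± 0.23 (95% interval −0.11 to 0.90), the highest of the member probes. Here CpG-ODN 1 was not low, and CpG-ODN 2 stood above all other arrays. The dim probe ILMN_2284794, detected on 2 arrays of each group, gave 0.27 ± 0.22. Without CpG-ODN 2 the difference of the brightest probe turned to −0.16, and without CpG-ODN 1 that of ILMN_1767006 turned to 0.03.

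PSMB10 (MECL-1), which replaces PSMB7, had the same mean in both groups within its error. It lay at 12.07, 12.70 and 12.52 log2 units in CpG-ODN and at 12.33, 12.44 and 12.51 in saline, on 1 probe detected on all 6 arrays. The difference was 0.01 ± 0.20 (SE; 95% interval −0.44 to 0.45), with CpG-ODN 1 below and CpG-ODN 2 above every saline array. It turned to −0.13 without CpG-ODN 2 and reached 0.19 without CpG-ODN 1.

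Each immunoproteasome subunit was also set against the constitutive subunit it replaces within the same array, a comparison added after the values were seen. The probes differ in brightness, so only the difference between groups can be read from these ratios. The log2 intensity of PSMB9 minus that of PSMB6 was −7.84, −7.95 and −7.92 in CpG-ODN and −6.91, −7.28 and −6.63 in saline. These values are a description, since the PSMB9 probe was not detected in CpG-ODN. For PSMB8 minus PSMB5 the groups differed by 0.09 (CpG-ODN −3.18 ± 0.13, saline −3.27 ± 0.06, SD, n = 3 each, exact two-sided permutation p = 0.50, where 0.10 is the smallest that 3 against 3 arrays can give). For PSMB10 minus PSMB7 they differed by 0.08 (CpG-ODN −0.70 ± 0.08, saline −0.77 ± 0.12, SD, n = 3 each, exact two-sided permutation p = 0.40). After Benjamini-Hochberg adjustment over the 3 pairs both exact p-values were 0.50. The spread of PSMB8 and PSMB10 over the CpG-ODN arrays shrank in these ratios, to an SD of 0.13 against 0.42 for PSMB8 alone and of 0.08 against 0.32 for PSMB10 alone. PSMB5 and PSMB7 themselves were lowest on CpG-ODN 1 and highest on CpG-ODN 2, at 12.49, 13.12 and 12.88 for PSMB5 and at 12.68, 13.42 and 13.28 for PSMB7 on CpG-ODN arrays 1 to 3.

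TAP1, the transporter subunit encoded beside PSMB9, had the narrowest spread over the saline arrays (SD 0.02), and over the CpG-ODN arrays (SD 0.07) only PSMB9 was narrower. Its normalized level was 11.18, 11.05 and 11.16 in CpG-ODN and 11.17, 11.14 and 11.13 in saline, with a difference of −0.02 ± 0.15 (SE; 95% interval −0.36 to 0.33). CpG-ODN 1 was the highest and CpG-ODN 2 the lowest of the 6 arrays. Before normalization the CpG-ODN arrays were farther apart, with intensities of 2850.1, 1841.0 and 2192.4 in CpG-ODN against 2481.8, 2382.8 and 2357.3 in saline. TAP2, the other subunit, lay at 8.09, 7.39 and 7.91 in CpG-ODN and at 7.87, 7.73 and 8.33 in saline on ILMN_1777565, a difference of −0.18 ± 0.24. It was lowest on CpG-ODN 2, and without that array the difference was 0.03. The second TAP2 probe, ILMN_1759250, annotated to another transcript, was detected on 2 CpG-ODN and 0 saline arrays and was too dim to test, with intensities of 135.3, 139.4 and 129.7 in CpG-ODN and 129.5, 131.1 and 135.8 in saline. These values overlap.

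TAPBP had the widest spread among the CpG-ODN arrays. Its brightest probe, ILMN_1742450, lay at 9.77, 10.95 and 10.49 in CpG-ODN and at 10.41, 10.57 and 10.74 in saline, with an SD of 0.59 in CpG-ODN and 0.17 in saline. CpG-ODN 1 was below and CpG-ODN 2 above every saline array, and the difference of −0.17 ± 0.28 (SE) turned to 0.15 without CpG-ODN 1. Probe ILMN_1782851, annotated to another transcript, was detected on 1 CpG-ODN and 3 saline arrays, with 5.34, 5.52 and 5.69 in CpG-ODN and 5.92, 5.67 and 6.09 in saline. The groups met only at CpG-ODN 3 and saline 2, and the difference was −0.38 ± 0.18 (95% interval −0.79 to 0.03, adjusted p = 1.00 in limma). The probe met the detection filter through the saline arrays, where it was higher, so these values are given as a description. The third probe, ILMN_1773031, was detected on 0 of 6 arrays.

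Among the heavy chains, HLA-B lay at 10.16, 10.56 and 10.57 in CpG-ODN and at 10.44, 10.61 and 11.01 in saline, a difference of −0.26 ± 0.21 (SE; 95% interval −0.72 to 0.21). HLA-C lay at 7.69, 8.01 and 7.48 in CpG-ODN and at 7.82, 8.19 and 7.95 in saline on ILMN_1721113, a difference of −0.26 ± 0.19 (95% interval −0.70 to 0.18). Both had a lower mean in CpG-ODN, and both overlapped with saline. Before normalization the groups did not overlap: HLA-B had intensities of 1432.1, 1311.0 and 1489.5 in CpG-ODN against 1554.0, 1685.1 and 2174.3 in saline, and HLA-C had 320.4, 288.7 and 261.4 in CpG-ODN against 330.4, 395.2 and 350.3 in saline. Such a separation was common in the non-normalized values, with CpG-ODN lower on 10.4% of tested probes and higher on 1.09%. Class I heavy chains are near-identical in parts and vary between individuals, and how far a probe for one also reads another was not tested. The second HLA-C probe, ILMN_2150787, was detected on 0 of 6 arrays.

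B2M, the light chain of every class I molecule, was read by 2 bright probes, each detected on all 6 arrays. Probe ILMN_1725427 lay at 13.37, 13.64 and 13.38 in CpG-ODN and at 13.60, 13.63 and 13.36 in saline, a difference of −0.07 ± 0.17 (SE). Probe ILMN_2148459 lay at 12.83, 13.09 and 12.95 in CpG-ODN and at 12.86, 12.95 and 12.78 in saline, a difference of 0.09 ± 0.16. The signs were opposite, and both 95% intervals, −0.46 to 0.31 and −0.27 to 0.46, lay within 1 log2 unit on either side of 0.

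**Figure D3:**
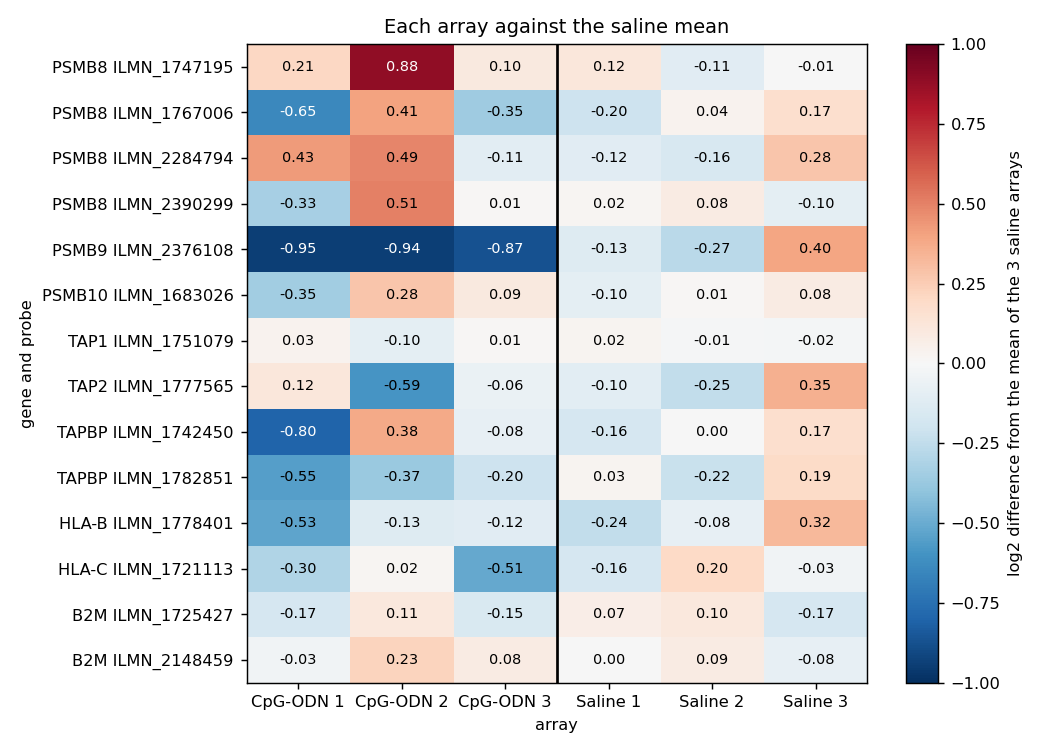
Log2 difference of each array (columns) from the mean of the 3 saline arrays for the 14 tested probes (rows), with blue below and red above that mean. PSMB9 is low on all 3 CpG-ODN arrays, while TAPBP ILMN_1742450 is low on CpG-ODN 1 (−0.80) and high on CpG-ODN 2 (0.38).

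The CpG-ODN arrays were farther apart than the saline arrays on most member probes, as they were on most probes of the array. The SD over the CpG-ODN arrays exceeded that over the saline arrays on 11 of the 14, against 74.2% of all tested probes, and was over 2 times as large on 6 of the 14, against 41.6%. These shares are near those of all probes. The median SD of the member probes was 0.30 in CpG-ODN and 0.17 in saline, and that of all tested probes 0.28 in CpG-ODN and 0.16 in saline. The exceptions with the larger SD in saline were PSMB9 (0.04 in CpG-ODN, 0.35 in saline), HLA-B (0.23 in CpG-ODN, 0.29 in saline) and TAPBP ILMN_1782851 (0.17 in CpG-ODN, 0.21 in saline). No CpG-ODN array detected the PSMB9 probe. Without CpG-ODN 2 the count with the larger SD in CpG-ODN was 6 of 14, against 60.6% of all tested probes, and without CpG-ODN 1 it was 11 of 14, against 55.4%.

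Of the 3 CpG-ODN arrays, CpG-ODN 1 was the lowest and CpG-ODN 2 the highest on 6 of the 14 member probes (2 of PSMB8, PSMB10, TAPBP ILMN_1742450 and both of B2M), against 25.8% of all tested probes. The reverse order was found on TAP1 and TAP2, 2 of 14, against 23.8%. CpG-ODN 1 and CpG-ODN 2 also had the highest and the lowest mean intensity of all arrays, and the part of array brightness in these orders was not tested.

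**Figure D4:**
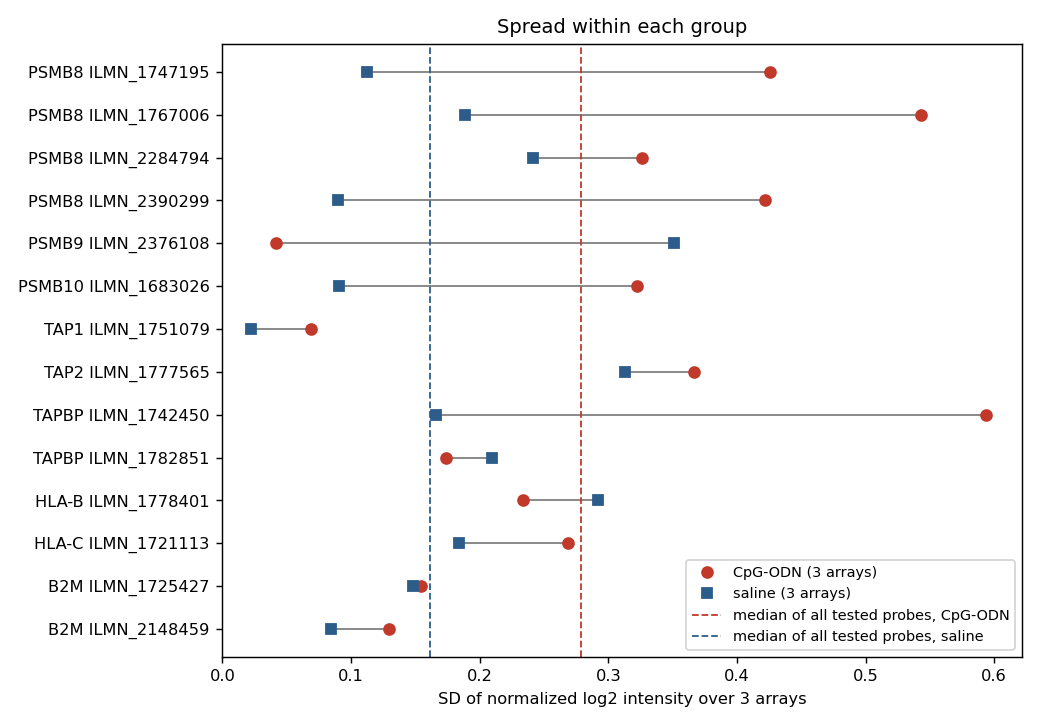
SD of the normalized log2 intensity (horizontal axis) over the 3 CpG-ODN arrays (red circles) and the 3 saline arrays (blue squares) for the 14 tested probes, with dashed lines at the medians of all tested probes. PSMB9 has its larger SD in saline, and TAPBP ILMN_1742450 has the largest SD in CpG-ODN (0.59).

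The rest of the pathway was read from lists, with each gene at its brightest probe, and 0 genes of any list passed (0 of 11040 genes tested, 0%, limma). Of all genes, 1.36% were lower and 1.57% higher in CpG-ODN at an unadjusted p under 0.05, 51.2% had a lower mean, and the median log2 fold change was −0.0053. The 9 members had 7 lower and 2 higher means and a median of −0.17. The 7 include PSMB9, which passed the filter only through the saline arrays, so neither value is read as support. Of the other heavy chains, HLA-E lay at 0.01 ± 0.22 (SE), HLA-F at −0.00090 ± 0.23 on one probe and −0.26 on another, and HLA-G at 0.42 ± 0.18 (unadjusted p = 0.041). HLA-G had 7.93, 8.06 and 7.87 in CpG-ODN and 7.77, 7.33 and 7.50 in saline. Its groups did not overlap, as on 9.35% of all tested probes in either direction.

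The proteasome genes outside the members lay close to saline. PSME1 and PSME2, the subunits of the PA28 activator that interferon induces, lay at −0.03 ± 0.16 and −0.01 ± 0.17. PSME3, of the related nuclear activator, had −0.02 ± 0.20 on one probe and 0.05 on another, and POMP, the assembly chaperone, at 0.10 ± 0.17. Of the constitutive catalytic subunits PSMB5 lay at −0.03 ± 0.19, PSMB6 at 0.05 ± 0.16 and PSMB7 at −0.07 ± 0.21. The other 10 measured subunits of the core ran from −0.13 (PSMB2) to 0.25 (PSMA3), with a median of 0.02. In peptide loading and trimming 7 of 8 genes were tested, with a median of 0.07. They ran from −0.49 ± 0.27 for ERAP1, an aminopeptidase that trims peptides in the endoplasmic reticulum, to 0.22 ± 0.19 for HSPA5, a chaperone there.

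Of the regulators of class I genes 14 were tested, of which 7 were higher and 7 lower on CpG-ODN arrays by their means, and 0 of the 14 had an unadjusted p under 0.05. The lowest were the NF-kB subunits NFKB1 at −0.38 ± 0.18 (SE) and RELA at −0.33 ± 0.19, the interferon receptor kinase JAK1 at −0.35 ± 0.22 and the type I interferon receptor chain IFNAR1 at −0.31 ± 0.20. IFNGR2 lay at −0.20, JAK2 at −0.17 and IRF2 at −0.10. On the other side were IFNAR2 at 0.14, the transcription factor IRF1 at 0.11, RFXANK at 0.11, IFNGR1 at 0.08, RFX5 at 0.04, and IRF9 and RFXAP at 0.03 each. NLRC5, the coactivator of class I genes, was detected on 0 CpG-ODN arrays and 1 saline array and was too dim to test. Of the 9 class II genes with a probe 5 were detected on 0 arrays, among them CIITA and HLA-DRA. Among the 3 tested, HLA-DMB lay at 0.35 ± 0.22 and HLA-DMA, its partner in peptide exchange, at −0.13 ± 0.18.

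Interferon-stimulated genes outside antigen presentation had a median of −0.22 over 16 tested genes, with 12 lower and 4 higher means. At an unadjusted p under 0.05 in limma 4 of the 16 were lower. Of all genes tested 1.36% were lower at that p, and 51.2% had a lower mean. The list was chosen with earlier results of these data known, so neither count is read as support. The median of the list was −0.36 without CpG-ODN 1 and −0.14 without saline 1, −0.11 without background correction and −0.35 with array weights. IFIT1, an antiviral RNA-binding protein, had the smallest unadjusted p at −1.32 ± 0.26 (SE), with 0.19 on its other probe, and UBE2L6, the conjugating enzyme for ISG15, lay highest at 0.24 ± 0.21. The probes of OAS1 disagreed, with −0.03 on the brightest and 0.60, −0.18 and 0.09 on the others.

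**Figure D5:**
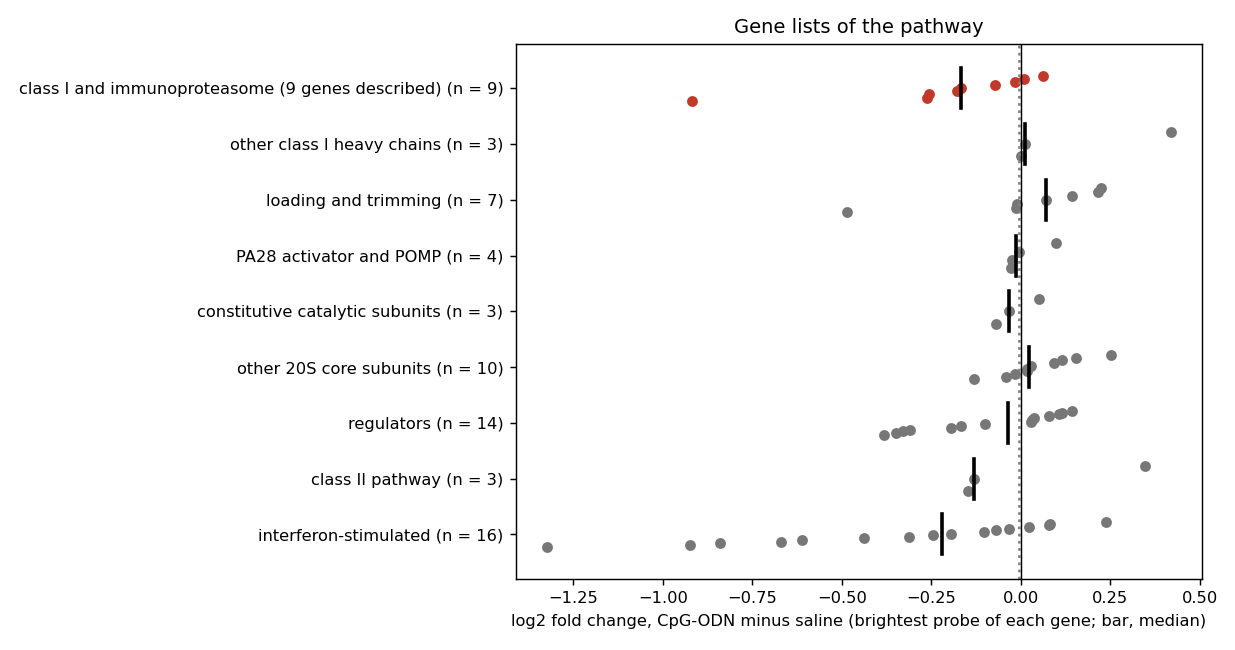
Log2 fold change, CpG-ODN minus saline (horizontal axis), of each tested gene at its brightest probe in 9 gene lists (rows), with the median of each list as a bar and that of all genes as a dotted line. PSMB9 is the lowest of the 9 members at −0.92, and the interferon-stimulated list reaches to −1.32.

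The mean of the members' centred log2 values was −0.26, 0.05 and −0.09 on CpG-ODN arrays 1 to 3 and 0.01, 0.08 and 0.21 on saline arrays 1 to 3. Of 9718 genes detected on all 6 arrays, the 5 with the most similar profile were DGKD (Pearson r = 0.991 over 6 arrays), MARS1 (0.983), PPP1CA (0.979), HAUS8 (0.979) and SF1 (0.976). The points share their arrays, and the correlations describe these 6 arrays only. The log2 fold changes of these 5 genes ran from −0.46 for SF1 to −0.20 for MARS1, and none passed the test (adjusted p = 1.00 each in limma). They were picked for likeness to a profile that was itself lower in CpG-ODN. Their lower means thus follow from the choice and are no separate result.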

How the data were processed

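Total RNA of 6 IGROV-1 samples was hybridized to single-colour Illumina bead arrays. The deposited non-normalized table holds, for each array, linear intensities and detection p-values of the probes, per the file headers, and BeadStudio is named in the submitters' processing notes, with no version given in the sources used here. A second deposited table of normalized intensities kept the rank order of each array. Its method is not stated there, and it lay within 0.022 log2 units of quantile normalization without background correction.

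Background correction, quantile normalization and log2 transformation were done with neqc of limma 3.58.1 (R 4.3.3), with controls inferred from detection p-values and an offset of 16, which draws fold changes of dim probes towards 0. Probes with detection p under 0.05 on at least 3 of 6 arrays were tested, 17950 of 48803. The test was lmFit and eBayes with group as the sole term and Benjamini-Hochberg adjustment over all tested probes, and was tested on simulated data first. Levels of different probes were not compared, apart from ratios within an array. Gene symbols came from the platform annotation, which gave 1 symbol to 28098 probes, and for lists a gene was its brightest tested probe. Of 69 tested genes of the lists 19 had several tested probes, with opposite signs in 9. Genes outside the members were named by rule: the class I heavy chains, PA28 genes, constitutive catalytic subunits and regulators of the lists, the smallest unadjusted p in each direction per list, and the 5 most similar profiles. OAS1 was named outside this rule, for the disagreement of its probes. The members and lists were chosen with earlier results of these data known, and the subunit ratios, the order of the CpG-ODN arrays and the motif search were added after seeing the data. Promoter sequences are RefSeq's (GRCh38.p14), which held all 9 genes. Precision is limited by the number of arrays. No chip or position is named, so no batch was tested.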

Additional observations from a re-analysis of the deposited data

How the results depend on the processing

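15 alternatives were run, each changing 1 choice: equal medians, no background correction, the deposited normalized values, offset 50, no filter, detection on all 6 arrays, array weights, 1 probe per gene, the replicate block, and each array left out. In all of them 0 probes and 0 member probes passed. Of 202 values of member probes 190 kept their sign. For PSMB9, which the filter on all 6 arrays leaves out, all 14 values were below 0, from −1.05 to −0.42, with adjusted p from 0.073 (array weights, where CpG-ODN 3 weighs 4.71 and the other CpG-ODN arrays 0.257 and 0.349) to 1.00. Its probe passed the main filter through the saline arrays alone, so the constant sign is given as a description. The sign turned for TAP1 (0.024) and B2M ILMN_1725427 (0.064) with equal medians, and for TAP1 (0.0034) and PSMB8 ILMN_2284794 (−0.0042) with array weights. With 1 array left out PSMB8 ILMN_1767006 ran from −0.50 to 0.027, PSMB8 ILMN_2390299 from −0.16 to 0.26, PSMB10 from −0.13 to 0.19, TAP1 from −0.044 to 0.021, TAP2 ILMN_1777565 from −0.33 to 0.027 and TAPBP ILMN_1742450 from −0.44 to 0.15. For each turn of sign the cause was not tested. The count of member probes with the larger SD in CpG-ODN was 7 of 9 with 1 probe per gene, where fewer probes are counted, and 6 to 12 of 14 with 1 array left out. Over all probes the count at an unadjusted p under 0.05 was 643, and ran from 334 with equal medians to 2903 with array weights, and to 2051 over 48803 probes without a filter. Of 120 medians of the lists 13 moved by more than their spread over the CpG-ODN arrays, 6 of them of the interferon-stimulated list, and the median of the proteasome core was 0.13 with equal medians, against 0.02. Deviations from the group means correlated at 0.341, 0.0499 and 0.126 between same-numbered arrays. CpG-ODN 1 correlated best with saline 1, and CpG-ODN 3 with saline 3, but CpG-ODN 2 also with saline 3 (0.243). Deviations within 3 arrays depend on each other, so these values cannot decide whether equal numbers mark pairs. The numbers were not taken as pairs because no label says that they are. With the replicate block 0 probes passed, 893 had an unadjusted p under 0.05, and PSMB9 stood at −0.92 (adjusted p = 0.970).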
